A study of Bos indicus with 6 samples.

Results

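The genes described are the amino acid transporters of the isthmus, the segment of the oviduct next to the uterus. They are the solute carriers of families SLC1, SLC3, SLC6, SLC7, SLC36, SLC38 and SLC43, chosen by symbol and not by any measured value. The rule took 57 of the 24616 genes listed, with 56 different symbols, because SLC6A9 stands under 2 Ensembl identifiers. It also took SLC7A6OS, a gene named for its place beside SLC7A6 and not a carrier. The tissue came from 6 healthy multiparous Nelore (Bos indicus) cows, with 1 RNA-seq library per cow. All received a progesterone device with estradiol benzoate, prostaglandin at device removal and 6 h later, and a GnRH agonist to induce ovulation on day 0. In 3 cows, 617, 79 and 527, prostaglandin was also given when the device was inserted and the device was removed 42 h before GnRH, so that a large follicle and a large corpus luteum formed (LF/LCL). In the other 3 cows, 856, 489215 and 97, no prostaglandin was given at insertion and the device was removed 30 h before GnRH, for a small follicle and a small corpus luteum (SF/SCL). On day 4 the isthmus on the side of the corpus luteum was collected with its whole wall, so epithelium, connective tissue and muscle were sequenced together. The study had ranked its animals by follicle, corpus luteum, estradiol and progesterone, and sequenced the LF/LCL cows with the highest ranks and the SF/SCL cows with the lowest.

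Amino acids cross cell membranes through carriers that draw on the gradients of sodium, protons or chloride, that exchange one amino acid for another, or that only facilitate diffusion. The light chains of family SLC7 reach the cell surface bound to a heavy chain, SLC3A1 or SLC3A2, whereas the other families act without such a partner. Oviduct fluid, in which gametes and the early embryo lie, is rich in free amino acids, and the carriers of the epithelium take part in setting its composition.

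Values are normalized counts, that is, reads per gene divided by the size factor of the library. They are not divided by gene length, so a level is compared between cows and not between genes, and where genes are sorted by count it is only by how many reads they had. Each cow had 23899117 to 34193164 reads on genes. Unless said otherwise, values are listed in the order of cows 617, 79 and 527 for LF/LCL and 856, 489215 and 97 for SF/SCL. The groups were compared by limma after log2(value + 1), and log2 fold changes are SF/SCL over LF/LCL, so a negative value was higher in LF/LCL. For genes with few reads, the added 1 makes the fold change smaller than it was. The p-values set the difference between groups against the spread between cows, with 3 in each group. In limma the spread of each gene was moderated with that of all genes tested. In fits without cow 489215, SF/SCL holds only cows 856 and 97.

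Cow 489215 stood apart from the other 5. It held the lowest value of the 6 cows in 35.7% of the 15387 genes tested and the highest in 36.7%. Without it, 7.92% of 15495 genes passed an adjusted p under 0.05 in limma as higher in LF/LCL and 10.3% as higher in SF/SCL. With all 6 cows 0.0% did in limma, and 0.0% in edgeR. DESeq2 with all 6 cows called 1.35% of the 15387 genes in each direction. The study, which used DESeq, also reported differentially expressed genes in the isthmus. The fold changes of the tested transporters described below are given with and without cow 489215. It was singled out by these same values, and leaving it out narrows the spread within SF/SCL in genes where it lay apart. For that reason the p-values without it, here and below, describe the remaining cows and are not an independent test.

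Markers of the cell types of the wall also differed between the groups and in this cow. The summed normalized count of the secretory epithelium list (10 of 10 genes found) ran from 33573 to 45254 in LF/LCL and from 90645 to 400197 in SF/SCL. In cows 856 and 97 most of that sum was OVGP1, the major glycoprotein of the oviduct's secretory cells, which was 287, 1782 and 1949.9 in the LF/LCL cows and 271794, 729.6 and 325158 in the SF/SCL cows. The ciliated list (9 of 11 genes found) ran from 18848 to 22184 in LF/LCL, and was 43079 and 47114 in SF/SCL cows 856 and 97 but 13418 in cow 489215. Smooth muscle genes (9 of 10 found) summed to 802015 to 924578 in LF/LCL, to 366997 and 433086 in cows 856 and 97, and to 1270440 in cow 489215. The fibroblast list (8 of 8 found) ran from 107469 to 140626 in LF/LCL and from 67578 to 100670 in SF/SCL. In the mesothelium list (6 of 6 found) the sums were 2520 to 3388 in LF/LCL and 3499 to 26747 in SF/SCL, but not all of its members lay in that direction. In cows 856 and 97 most of that sum was MSLN, which is also in the secretory list. BNC1, the 1 member tested with all cows, was 68.0, 97.6 and 73.8 in the LF/LCL cows and 23.5, 16.0 and 19.5 in the SF/SCL cows, and without cow 489215 limma called BNC1 and LRRN4 as higher in LF/LCL and WT1 as higher in SF/SCL. Schwann cell and nerve genes (7 of 7 found) ran from 3646 to 5935 in LF/LCL and from 9578 to 32470 in SF/SCL, although 5 of the 6 tested had a negative log2 fold change and only that of S100B was positive, at 2.39 (SE 0.55). In the same order of groups, endothelial genes (8 of 9) ran from 13478 to 17205 and from 11442 to 16344, and leukocyte genes (8 of 9) from 4883 to 6444 and from 4355 to 8222. Erythrocyte genes (5 of 6) summed to 5.27 to 11.5 in LF/LCL and 9.87 to 25.3 in SF/SCL. No marker found in the table was at 0 in every library. The transporters themselves, SLC7A6OS included, summed to 35371 to 36593 in LF/LCL and 37233 to 40412 in SF/SCL, with cow 489215 highest. These sums depend on scaling. The normalized counts of all genes summed to 3.39e+07 in cow 489215 and to 2.59e+07 to 2.69e+07 in the other cows. In that cow SLC7A6OS, which is not a carrier, made up 2490 of the transporter sum. In bulk tissue, fewer cells of a type and less RNA per cell cannot be told apart, and the part of cell composition in the differences below was not tested.

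**Figure D1:**
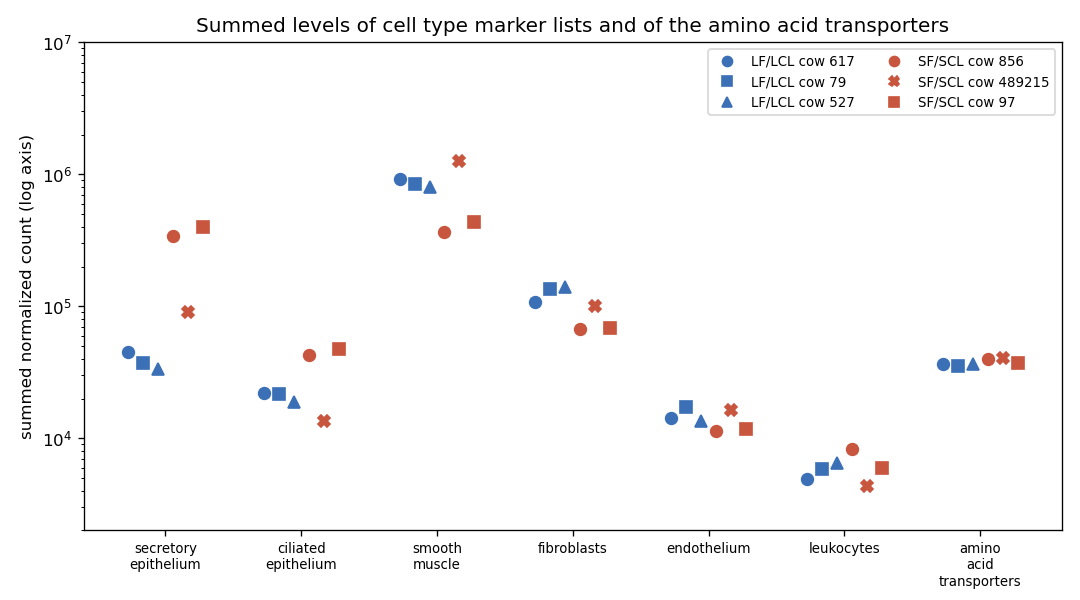
Summed normalized counts (log axis) of 6 cell type marker lists and of the amino acid transporters, with 1 point per cow, LF/LCL in blue and SF/SCL in red. Cows 856 and 97 lie above the LF/LCL cows in both epithelial lists and below them in smooth muscle, cow 489215 is the highest in smooth muscle, and the transporters sum to 35371 to 40412 in all 6 cows.

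Most of the transporter genes were read in this tissue. The mean normalized count over the 6 cows was at least 1000 for 9 of the 57, from 15 to 1000 for 34 and under 15 for 14. The 9 were SLC38A2, SLC3A2, SLC1A4, SLC6A9 (ENSBTAG00000008690), SLC1A1, SLC38A10, SLC7A6OS, SLC6A8 and SLC1A5. In 4 genes no read was found in any cow, which allows up to 3 reads per library for counting error alone. They were SLC1A6, a glutamate carrier known from cerebellar neurons, SLC7A9, the light chain that pairs with SLC3A1 in the kidney, SLC6A18, a neutral amino acid carrier of the kidney, and SLC6A13, a carrier of GABA. Another 7 had reads but a mean of 5 or less: the glutamate carrier SLC1A2, the dopamine carrier SLC6A3, the neuronal glycine carrier SLC6A5, the proline carrier SLC6A7, the betaine carrier SLC6A12, SLC7A14 and SLC38A8. A further 4, SLC36A2, SLC38A11, SLC6A16 and SLC6A19, had a mean above 5 that did not exceed their SD over the cows. These 15 genes were left out of the test by its filter, which asks for a mean above 5 and above the SD, and 42 were tested. No row carried the symbols SLC7A5, SLC7A12, SLC7A13, SLC38A4 or SLC43A1, and these were not analysed here.

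With all 6 cows, 0 of the 42 transporters passed an adjusted p under 0.05 in limma, beside 0.0% of all genes tested, and the smallest adjusted p of a transporter was 0.421. At an unadjusted p under 0.05 limma gave 4 as higher in LF/LCL (SLC36A3, SLC6A6, SLC6A17 and SLC7A8), beside 4.48% of all genes, and 2 as higher in SF/SCL (SLC1A3 and SLC1A5), beside 4.19%. These are 9.52% and 4.76% of the 42. The quasi-likelihood test of edgeR called 0 transporters and 0.0% of all genes, with 5 transporters at an unadjusted p under 0.05, namely SLC1A3, SLC1A5, SLC6A4, SLC6A6 and SLC7A8. The share of all genes at that unadjusted p was not counted in edgeR, so these 5 have no share to be read against. DESeq2 called 1 transporter as higher in LF/LCL, SLC7A8, and 0 as higher in SF/SCL, where it called 1.35% of all genes in each direction. In 5 transporters every LF/LCL cow lay above every SF/SCL cow (SLC36A3, SLC6A17, SLC6A4, SLC6A6 and SLC7A8), which is 11.9% of the 42 beside 8.6% of all genes. In another 5 every SF/SCL cow lay above every LF/LCL cow (SLC1A5, SLC38A6, SLC38A9, SLC7A4 and SLC7A6OS), beside 9.51% of all genes. The median log2 fold change was -0.083 over the 42 and -0.016 over all genes tested.

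Without cow 489215, which was singled out by the same values, 8 of the 42 passed an adjusted p under 0.05 in limma. Because of that choice, passing in this fit is a description of the remaining cows and not an independent test. Higher in LF/LCL were 6, or 14.3% of the 42 beside 7.92% of all genes: SLC36A3, SLC43A3, SLC38A5, SLC6A6, SLC7A8 and SLC38A2. Higher in SF/SCL were 2, or 4.76% beside 10.3%: SLC1A3 and SLC1A5. Of these 8, 5 were among the 6 at an unadjusted p under 0.05 with all cows, and the other 3, SLC43A3, SLC38A5 and SLC38A2, were not. Their adjusted p with all 6 cows ran from 0.0369 to 0.995 over 9 fits with limma, edgeR and DESeq2, and from 0.699 to 0.999 in limma when another cow was left out. SLC1A3 did not pass the filter without cow 856 and has no p-value in that fit. The sign of the fold change was the same in both limma fits for 31 transporters and opposite for 11, and the median log2 fold change moved from -0.083 to 0.15, where that of all genes was -0.00092. Cows 856 and 97, which these 8 calls set against LF/LCL, were also the cows with the highest OVGP1 and ciliated sums and the lowest smooth muscle sums given above.

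**Figure D2:**
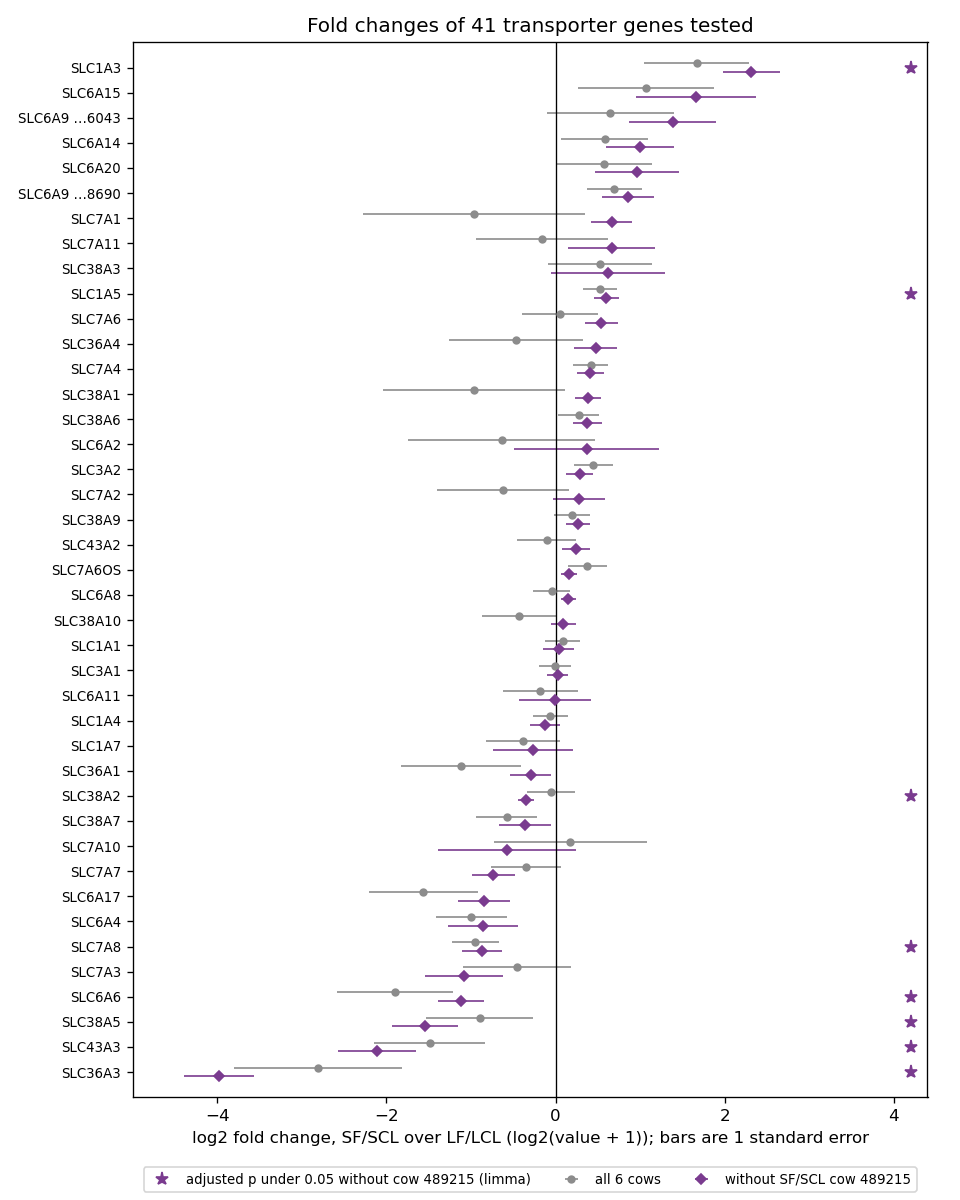
Log2 fold changes, SF/SCL over LF/LCL, of 41 of the 42 genes tested with limma on log2(value + 1), with all 6 cows (grey circles) and without cow 489215 (purple diamonds), where bars are 1 standard error and stars mark an adjusted p under 0.05 without that cow. SLC36A3 lies lowest in both, SLC1A3 highest, and SLC7A1 and SLC38A1 cross 0 between the fits.

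The proton-coupled carriers of family SLC36 move small amino acids such as glycine, alanine and proline together with a proton. The widest difference between groups among the transporters tested was that of SLC36A3 (ENSBTAG00000006624), a member known from testis. Its normalized count was 103, 167 and 88.7 in the LF/LCL cows and 5.32, 82.5 and 7.59 in the SF/SCL cows. Cows 856 and 97 lay far below the other 4, and cow 489215 lay just under the lowest LF/LCL cow. On the log2 scale the difference was -2.81 (SE 1.00), with an adjusted p of 0.496 in limma. Without cow 489215 it was -3.98 (SE 0.41), with an adjusted p of 0.00333 in limma, and the mean of the LF/LCL cows was 18.5 times that of cows 856 and 97. SLC36A2, a carrier of glycine, alanine and proline known from kidney, was 7.33, 9.39 and 10.5 in the LF/LCL cows and 25.1, 9.32 and 65.0 in the SF/SCL cows. Here the order ran the other way, with cows 856 and 97 highest and cow 489215 inside the LF/LCL range, and the gene was not tested because its SD exceeded its mean. Without a filter its log2 fold change was 1.38 (SE 0.73), with an adjusted p of 0.717 in limma. SLC36A1, which works at the plasma membrane and in lysosomes, was 175, 232 and 239 in the LF/LCL cows and 205, 30.6 and 147 in the SF/SCL cows. SLC36A4, a high-affinity carrier of proline and tryptophan, was 273, 259 and 429.5 in the LF/LCL cows and 475, 59.9 and 397 in the SF/SCL cows. In both genes the 5 other cows overlapped between groups and cow 489215 was far below them. Their log2 fold changes were -1.11 (SE 0.71) and -0.47 (SE 0.80) with all cows and -0.29 (SE 0.24) and 0.48 (SE 0.25) without cow 489215, so that of SLC36A4 turned, and no adjusted p was under 0.238 in limma. SLC36A3, SLC36A2 and SLC36A1 follow each other in the RefSeq annotation of another bovine assembly.

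Within family SLC6, which couples transport to sodium and chloride, the largest log2 fold change of a tested gene with all 6 cows was that of the taurine carrier SLC6A6 (ENSBTAG00000011088). It was 118, 145 and 167 in the LF/LCL cows and 57.7, 11.98 and 72.6 in the SF/SCL cows. No SF/SCL cow reached the lowest LF/LCL cow, and cow 489215 was the lowest of all. The log2 fold change was -1.90 (SE 0.69), with an adjusted p of 0.504 in limma, and -1.12 (SE 0.27) without cow 489215, with an adjusted p of 0.0352 in limma. The LF/LCL mean was 2.20 times that of cows 856 and 97. Taurine is made from cysteine, and CDO1, the dioxygenase that opens that pathway, was 1829.6, 1541 and 1731 in the LF/LCL cows and 2076, 2713 and 2263 in the SF/SCL cows, higher in every SF/SCL cow. The log2 fold change of CDO1 was 0.46 (SE 0.18), with an adjusted p of 0.541 in limma, and 0.35 (SE 0.11) without cow 489215, with an adjusted p of 0.0698. CSAD and ADO, other enzymes of taurine synthesis, overlapped between groups, with log2 fold changes of 0.19 (SE 0.19) and -0.25 (SE 0.44). Without cow 489215 these were 0.23 (SE 0.13) and 0.21 (SE 0.20), and no adjusted p was under 0.05 in limma.

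SLC6A17 (ENSBTAG00000001981), a carrier of neutral amino acids known from synaptic vesicles, was 495, 555 and 497 in the LF/LCL cows and 418, 63.9 and 195 in the SF/SCL cows. The LF/LCL cows lay close together and above all SF/SCL cows, among which cow 856 came nearest to them. For SLC6A17 the log2 fold change was -1.56 (SE 0.65), with an unadjusted p of 0.0494 and an adjusted p of 0.577 in limma, and without cow 489215 it was -0.85 (SE 0.31), with an adjusted p of 0.108. Glycine is taken up by SLC6A9, which has 2 rows. Under ENSBTAG00000008690 it was 4087, 2365 and 2657 in the LF/LCL cows and 7117, 3818 and 4008 in the SF/SCL cows, and the groups overlapped because LF/LCL cow 617 lay above cows 489215 and 97. Its log2 fold change was 0.69 (SE 0.33), with an adjusted p of 0.637 in limma, and 0.86 (SE 0.31) without cow 489215, with an adjusted p of 0.105. Under ENSBTAG00000006043 it was 16.7, 8.45 and 22.8 in the LF/LCL cows and 47.1, 7.99 and 34.7 in the SF/SCL cows, with cow 489215 lowest and cows 856 and 97 highest, and the log2 fold change was 0.65 (SE 0.75) with all cows and 1.38 (SE 0.52) without cow 489215. How reads were divided between these 2 rows is not given in the sources used here, so each is uncertain as a measure of SLC6A9. SLC6A8, the creatine carrier, was 1354, 1253 and 1296 in the LF/LCL cows and 1461, 961 and 1432 in the SF/SCL cows. For SLC6A8 the log2 fold change was -0.043 (SE 0.22), with an interval at 95% of -0.57 to 0.48, and 0.15 (SE 0.092) without cow 489215.

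The other members of family SLC6 are given more briefly. SLC6A14, a carrier of neutral and cationic amino acids found in many epithelia, was 217, 142 and 162 in the LF/LCL cows and 539, 142 and 218 in the SF/SCL cows, with cow 856 well above the rest. SLC6A15, a carrier of branched-chain amino acids and proline, was 56.5, 9.39 and 31.6 in the LF/LCL cows and 85.8, 24.0 and 82.4 in the SF/SCL cows, and SLC6A20, an imino acid carrier, was 319, 242 and 117 in the LF/LCL cows and 276, 178 and 604 in the SF/SCL cows. In these 3 genes the log2 fold change was between 0.57 and 1.07, and between 0.97 and 1.66 without cow 489215, with adjusted p values of 0.135, 0.155 and 0.224 in limma. SLC6A16, whose substrate is not established, was not tested and was 16.7, 53.5 and 198 in the LF/LCL cows and 1.52, 6.66 and 26.0 in the SF/SCL cows. Within LF/LCL alone the values of SLC6A16 ran from 16.7 to 198, and without a filter its log2 fold change was -2.84 (SE 1.16), with an adjusted p of 0.597 in limma. SLC6A19, a neutral amino acid carrier of gut and kidney, was 3.14, 11.3 and 0 in the LF/LCL cows and 22.0, 3.99 and 2.17 in the SF/SCL cows. The serotonin carrier SLC6A4 was 76.4, 41.3 and 87.8 in the LF/LCL cows and 38.7, 26.6 and 32.5 in the SF/SCL cows, so the groups did not overlap, with a log2 fold change of -0.99 (SE 0.42) and an adjusted p of 0.591 in limma, and -0.86 (SE 0.41) and 0.196 without cow 489215. The noradrenaline carrier SLC6A2 and the GABA carrier SLC6A11 overlapped between groups, with log2 fold changes of -0.64 (SE 1.11) and -0.18 (SE 0.44). Without cow 489215 these were 0.37 (SE 0.86), so that the sign of SLC6A2 turned, and -0.0064 (SE 0.42), and all were smaller than their errors.

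Family SLC1 holds carriers of glutamate and aspartate and carriers of neutral amino acids. Both transporters at an unadjusted p under 0.05 and higher in SF/SCL belonged to it. The glutamate carrier SLC1A3 (ENSBTAG00000018245), best known from astrocytes, was 64.9, 42.2 and 37.8 in the LF/LCL cows and 198, 61.2 and 286 in the SF/SCL cows. Cows 856 and 97 lay above the other 4, and cow 489215 lay under LF/LCL cow 617. Between the groups the log2 fold change was 1.67 (SE 0.62), with an adjusted p of 0.514 in limma, and 2.32 (SE 0.34) without cow 489215, with an adjusted p of 0.00836 in limma. Cows 856 and 97 had on average 5.01 times the LF/LCL mean. In DESeq2 with all cows the adjusted p of SLC1A3 was 0.0526. The study, which used DESeq, lists SLC1A3 among the genes differentially expressed and higher in the SF/SCL isthmus. SLC1A1, the glutamate and cysteine carrier of many epithelia, was 3860.1, 3010.2 and 4610.4 in the LF/LCL cows and 3620.2, 4275 and 4137 in the SF/SCL cows. Its groups overlapped fully, the log2 fold change was 0.086 (SE 0.21), and the interval at 95% was -0.41 to 0.58, beside 0.038 (SE 0.18) without cow 489215. SLC1A7, a glutamate carrier of the retina, was between 10.7 and 22.5 in all cows, with log2 fold changes of -0.38 (SE 0.44) and, without cow 489215, -0.27 (SE 0.47).

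SLC1A5 (ENSBTAG00000013577), an exchanger of glutamine and other neutral amino acids, was 993, 876 and 904 in the LF/LCL cows and 1608, 1199.6 and 1217 in the SF/SCL cows. All SF/SCL cows, cow 489215 included, lay above all LF/LCL cows. The means were 924 ± 61.4 in LF/LCL and 1342 ± 231 in SF/SCL (SD, n = 3 each). On the log2 scale the difference was 0.53 (SE 0.20), with an adjusted p of 0.515 in limma, and 0.60 (SE 0.15) without cow 489215, with an adjusted p of 0.0359 in limma. SLC1A4, the related exchanger of alanine, serine and cysteine, was 5368, 4029 and 4077 in the LF/LCL cows and 3523, 4661 and 4717 in the SF/SCL cows. Cow 617 was the highest and cow 856 the lowest, and the others lay between. Its log2 fold change was -0.062 (SE 0.21), with an interval at 95% of -0.56 to 0.44, and -0.13 (SE 0.18) without cow 489215.

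Of the heavy chains, SLC3A2 (CD98), the partner of most light chains, was 3536, 4307 and 4819 in the LF/LCL cows and 5638, 7164 and 4609 in the SF/SCL cows. Cow 489215 was the highest and the other 5 cows overlapped. The log2 fold change was 0.45 (SE 0.23), with an adjusted p of 0.662 in limma, and 0.28 (SE 0.16) without cow 489215, with an adjusted p of 0.256. SLC3A1, the heavy chain of the cystine carrier of kidney and gut, was 534, 508 and 543 in the LF/LCL cows and 513, 509 and 561 in the SF/SCL cows. Its 6 values lay close together, the log2 fold change was -0.0024 (SE 0.19) and the interval at 95% was -0.45 to 0.45, and without cow 489215 the log2 fold change was 0.023 (SE 0.12). Its usual light chain, SLC7A9, had 0 reads in all cows.

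Among the light chains, SLC7A8 (ENSBTAG00000007415), which exchanges neutral amino acids at the basolateral side of epithelia, was 309.8, 459 and 499.8 in the LF/LCL cows and 215, 190.4 and 238 in the SF/SCL cows. Every LF/LCL cow lay above every SF/SCL cow, and here cow 489215 stood beside cows 856 and 97. The LF/LCL mean was 1.97 times the SF/SCL mean. Its log2 fold change was -0.95 (SE 0.28), with an adjusted p of 0.421 in limma, and -0.87 (SE 0.24) without cow 489215, with an adjusted p of 0.0491 in limma. This was the transporter that DESeq2 called with all 6 cows, at an adjusted p of 0.0369, whereas edgeR gave 0.39, and over the 9 fits with all cows the adjusted p ran from 0.0369 to 0.457. SLC7A7, an exchanger of cationic against neutral amino acids, was 279, 394 and 444 in the LF/LCL cows and 185, 495 and 259 in the SF/SCL cows. Cow 489215 was the highest and cows 856 and 97 the lowest, and the log2 fold change was -0.35 (SE 0.41) with all cows and -0.74 (SE 0.26) without cow 489215, at adjusted p values of 0.881 and 0.0975 in limma. SLC7A6, a light chain of the same kind, was 355, 508 and 521 in the LF/LCL cows and 675, 237 and 650.3 in the SF/SCL cows. The highest were cows 856 and 97 and the lowest cow 489215, and the log2 fold change was 0.049 (SE 0.45) with all cows and 0.54 (SE 0.19) without cow 489215, at 0.981 and 0.104 in limma.

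The gene beside it, SLC7A6OS, was 1475, 1376 and 1378 in the LF/LCL cows and 1646, 2489.7 and 1498 in the SF/SCL cows, with all SF/SCL cows above all LF/LCL cows and cow 489215 highest. The log2 fold change of SLC7A6OS was 0.38 (SE 0.23), with an adjusted p of 0.745 in limma, and 0.16 (SE 0.097) without cow 489215, with an adjusted p of 0.307. SLC7A6 and SLC7A6OS overlap in the RefSeq annotation of another bovine assembly, and whether strand was used in counting is not given in the sources used here, so reads of one may have been counted for the other. The 2 remaining light chains that were tested had few reads. SLC7A10, an exchanger of alanine, serine and cysteine known from brain, was 7.33, 2.82 and 19.3 in the LF/LCL cows and 5.32, 26.6 and 4.33 in the SF/SCL cows. SLC7A11, which exports glutamate for cystine, was 6.28, 6.57 and 8.78 in the LF/LCL cows and 14.4, 1.33 and 9.75 in the SF/SCL cows. Their log2 fold changes were 0.18 (SE 0.90) and -0.16 (SE 0.79), smaller than their errors, and the sign of each turned without cow 489215, to -0.57 and 0.66.

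The cationic carriers of family SLC7 bring arginine, lysine and ornithine into cells without a heavy chain, and 4 of 5 were tested. With all cows 0 were at an unadjusted p under 0.05 in limma and neither edgeR nor DESeq2 called any, and without cow 489215 limma called none. SLC7A1, the widespread member, was 408, 359 and 333 in the LF/LCL cows and 761, 18.6 and 441 in the SF/SCL cows. Cow 489215 lay far under all the others, and without it both SF/SCL cows lay above all LF/LCL cows. Its log2 fold change turned from -0.96 (SE 1.31) to 0.66 (SE 0.25), with adjusted p values of 0.892 and 0.112 in limma, and in edgeR with all cows the log2 fold change was 0.14 and the adjusted p 0.983. SLC7A2, a member induced in macrophages and present in liver, was 242, 359 and 209 in the LF/LCL cows and 405, 47.9 and 251 in the SF/SCL cows, again with cow 489215 lowest by far, and its log2 fold change turned from -0.62 (SE 0.78) to 0.28 (SE 0.31) without that cow. SLC7A3 was 25.1, 17.8 and 28.1 in the LF/LCL cows and 8.36, 41.3 and 13.0 in the SF/SCL cows, with cow 489215 highest and cows 856 and 97 lowest, and log2 fold changes of -0.46 (SE 0.64) with that cow and -1.09 (SE 0.46) without it. SLC7A4, for which transport has not been settled, was 387, 380.1 and 314 in the LF/LCL cows and 449.7, 482 and 505 in the SF/SCL cows. All its SF/SCL values lay above all LF/LCL values, with a log2 fold change of 0.41 (SE 0.21) and an adjusted p of 0.662 in limma, and 0.41 (SE 0.16) and 0.126 without cow 489215.

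Family SLC38 carries glutamine and other small neutral amino acids with sodium. Of its system A members, SLC38A2 (ENSBTAG00000011105), which cells induce when amino acids run short, was 6760.4, 7334 and 6579.6 in the LF/LCL cows and 5108, 10142 and 5678 in the SF/SCL cows. The groups overlapped because of cow 489215, the highest of all, while cows 856 and 97 lay under every LF/LCL cow. Between the groups the log2 fold change was -0.050 (SE 0.29), with an adjusted p of 0.973 in limma, and -0.35 (SE 0.095) without cow 489215, with an adjusted p of 0.0485 in limma. SLC38A1, its neighbour in the RefSeq annotation of another bovine assembly, was 254, 234 and 242 in the LF/LCL cows and 315, 18.6 and 318 in the SF/SCL cows. Cows 856 and 97 lay above every LF/LCL cow and cow 489215 far under all of them, the reverse of SLC38A2 in both respects. The log2 fold change of SLC38A1 was -0.96 (SE 1.08) with all cows and 0.38 (SE 0.15) without cow 489215, with adjusted p values of 0.873 and 0.138 in limma.

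Of the system N members, which can also release glutamine, SLC38A5 (ENSBTAG00000011854) was 161, 221 and 109.8 in the LF/LCL cows and 69.1, 206 and 41.2 in the SF/SCL cows. The lowest were cows 856 and 97, and cow 489215 lay among the LF/LCL cows. On the log2 scale the difference was -0.90 (SE 0.63), with an adjusted p of 0.787 in limma, and -1.54 (SE 0.39) without cow 489215, with an adjusted p of 0.0392 in limma. SLC38A3, the glutamine carrier of liver and kidney, was 8.37, 30.0 and 22.0 in the LF/LCL cows and 17.5, 22.6 and 44.4 in the SF/SCL cows and overlapped between groups, with log2 fold changes of 0.52 (SE 0.62) and, without cow 489215, 0.62 (SE 0.68). SLC38A11 (ENSBTAG00000007650), whose function is little known, was 20.9, 59.1 and 22.0 in the LF/LCL cows and 3.04, 11.98 and 0 in the SF/SCL cows. Every LF/LCL cow lay above every SF/SCL cow, and the 0 of cow 97 allows up to 3 reads, or 3.25 normalized counts. SLC38A11 was not tested because its SD exceeded its mean, and without a filter its log2 fold change was -3.06 (SE 0.99) and its adjusted p 0.477 in limma.

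The remaining tested members of family SLC38 had no adjusted p under 0.05 in limma with or without cow 489215. SLC38A10 was 1807, 2490.2 and 2197 in the LF/LCL cows and 2164, 775 and 2424 in the SF/SCL cows, so that the other 5 cows lay together and cow 489215 far lower, and its log2 fold change was -0.43 (SE 0.45) with all cows and 0.094 (SE 0.15) without that cow. SLC38A9, a carrier of the lysosome that reports arginine to mTORC1, was 324, 318 and 343 in the LF/LCL cows and 373, 345 and 416 in the SF/SCL cows. SLC38A6 was 234, 207 and 235 in the LF/LCL cows and 312, 238 and 274 in the SF/SCL cows. In both genes all SF/SCL cows lay above all LF/LCL cows, by small log2 fold changes of 0.20 (SE 0.21) and 0.28 (SE 0.24), with adjusted p values of 0.868 and 0.841 in limma. Without cow 489215 they were 0.26 (SE 0.14) and 0.37 (SE 0.17), at 0.251 and 0.177. SLC38A7, a glutamine carrier of the lysosome, was 592, 553 and 1132 in the LF/LCL cows and 579, 353 and 543 in the SF/SCL cows, with LF/LCL cow 527 well above all others, and its log2 fold change was -0.58 (SE 0.36) with all cows and -0.36 (SE 0.31) without cow 489215.

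In family SLC43 the name does not describe both members. SLC43A2 carries large neutral amino acids by facilitated diffusion, whereas SLC43A3 is known as a carrier of purine nucleobases. SLC43A3 (ENSBTAG00000010060) was 618, 1293 and 453 in the LF/LCL cows and 214, 606 and 126 in the SF/SCL cows. The lowest here were cows 856 and 97, and cow 489215 lay between LF/LCL cows 527 and 617. The log2 fold change was -1.49 (SE 0.66), with an adjusted p of 0.609 in limma, and -2.11 (SE 0.46) without cow 489215, with an adjusted p of 0.0259 in limma. SLC43A2 was 296, 277 and 293 in the LF/LCL cows and 307, 166 and 379 in the SF/SCL cows, with cow 489215 lowest and cows 856 and 97 highest, and its log2 fold change was -0.10 (SE 0.35) with all cows and 0.24 (SE 0.16) without cow 489215, at an adjusted p of 0.351 in limma.

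**Figure D3:**
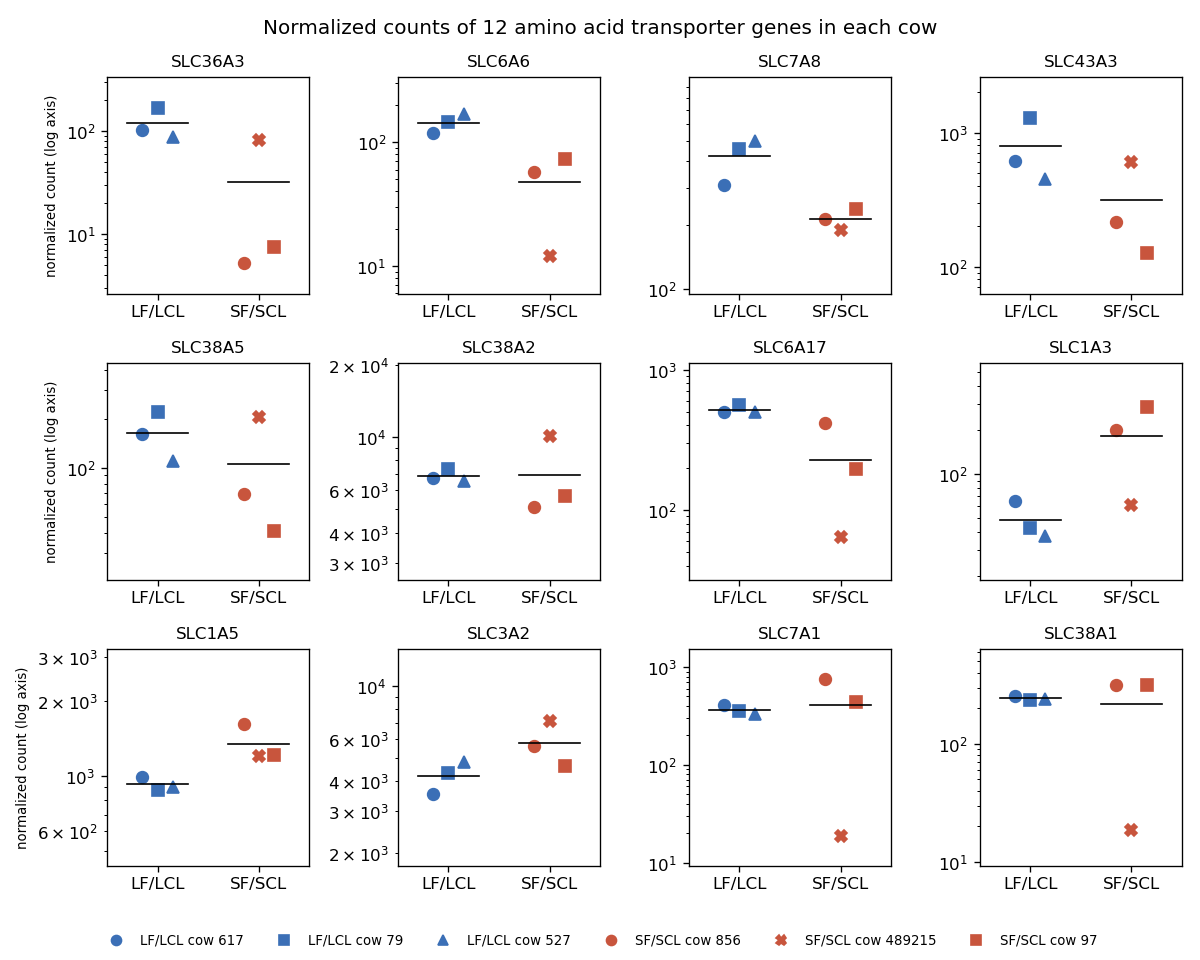
Normalized counts (log axis) of 12 transporter genes in each cow, LF/LCL in blue and SF/SCL in red, with 1 symbol per cow and a line at each group mean. In SLC7A8, SLC6A6, SLC6A17, SLC36A3 and SLC1A5 no cow of one group reaches the other group. In SLC36A3, SLC43A3, SLC38A5 and SLC1A3 the crosses of cow 489215 lie with or near the LF/LCL cows, and in SLC7A1 and SLC38A1 they lie far below all others.

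Cow 489215 differed from the other 5 cows in its transporters more often by low than by high values. It was the lowest of the 6 in 19 of the 42 tested, or 45.2%, beside 35.7% of all genes tested, and the highest in 6, or 14.3%, beside 36.7%. The 6 were SLC38A2, SLC3A2, SLC7A10, SLC7A3, SLC7A6OS and SLC7A7. In 9 of the 42 (21.4%) its log2(value + 1) was more than 2 below that of the median of the other cows, beside 9.07% of all genes tested, and in 1, SLC7A10, it was more than 2 above, beside 0.526%. The 9 were the cationic carriers SLC7A1 and SLC7A2, the light chain SLC7A11, SLC38A1, SLC6A6, SLC6A17, SLC6A2, SLC36A1 and SLC36A4. In SLC7A11 and in SLC6A2 cow 489215 had only 1 read, a normalized count of 1.33, so a few reads move these distances. The distance was largest for SLC7A1, at -4.38, then SLC38A1, at -3.70, and SLC6A6, at -3.20. The median coefficient of variation over the cows was 43.5% for the 42 transporters and 31.5% for all genes tested, and over the 5 other cows 34.0% and 18.7%. Its total of 25472906 reads lay inside the range of the other libraries, and its size factor of 0.751 was the lowest of the 6, where the others ran from 0.923 to 1.32.

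**Figure D4:**
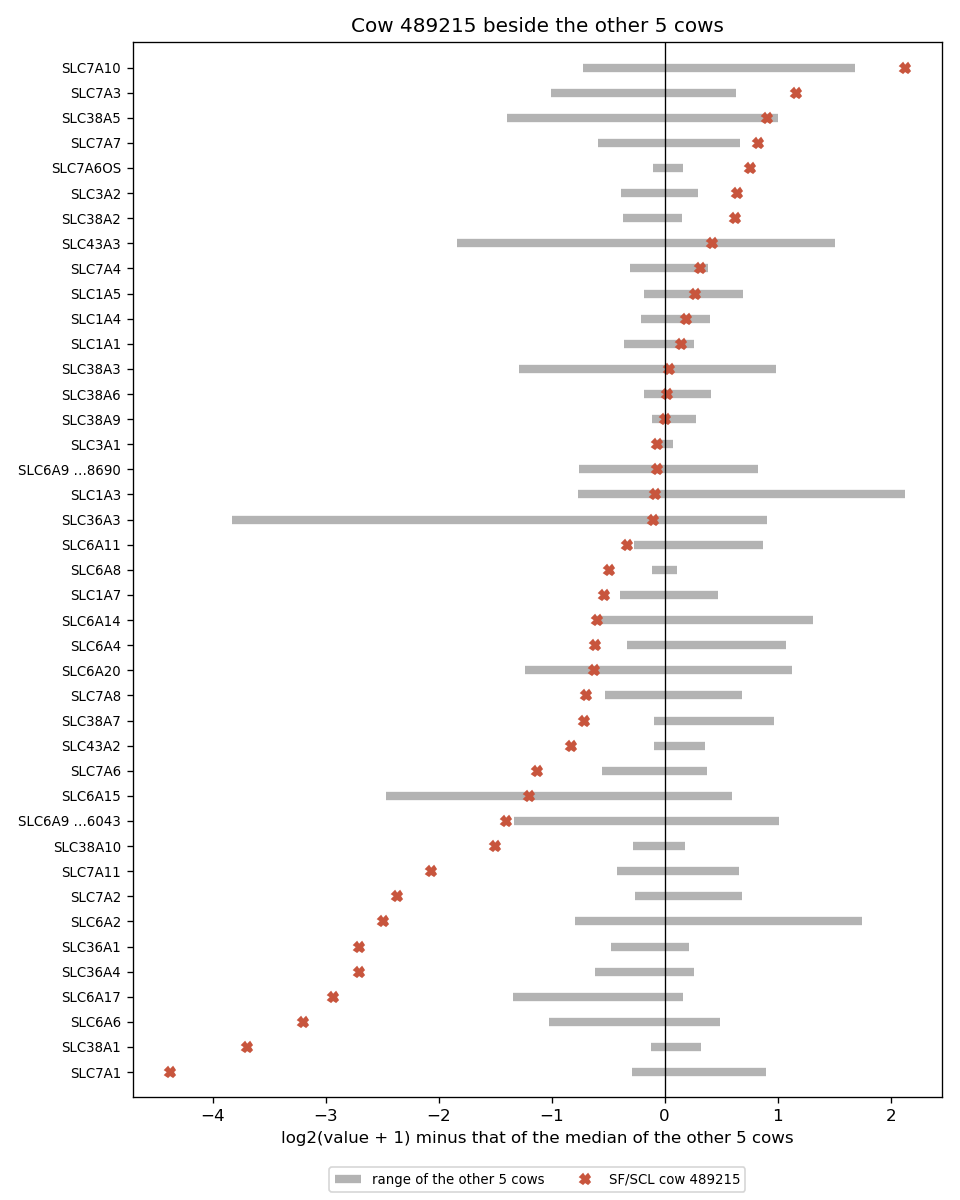
Difference between log2(value + 1) of SF/SCL cow 489215 and that of the median of the other 5 cows for 41 of the 42 genes tested (crosses), with the range of the other 5 cows as grey bars. The crosses of SLC7A1, SLC38A1, SLC6A6, SLC6A17 and SLC36A4 lie far to the left of their bars, and SLC7A10 and SLC7A3 lie to the right.

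Other genes that handle amino acids were counted by list. Of 27 enzymes of amino acid metabolism, all tested, 1 was at an unadjusted p under 0.05 in limma and higher in LF/LCL, and 4 were higher in SF/SCL, beside 4.48% and 4.19% of all genes. PRODH, which starts the breakdown of proline, was 1646, 1495 and 1166 in the LF/LCL cows and 1061, 837 and 398 in the SF/SCL cows. OAT, the ornithine aminotransferase, was 4285, 4361 and 3167 in the LF/LCL cows and 9467, 6612 and 6305 in the SF/SCL cows. BCKDHA, a subunit of the complex that breaks down branched-chain amino acids, was 2178, 1720.5 and 1801 in the LF/LCL cows and 2804, 2394 and 4175 in the SF/SCL cows, and GPT, an alanine aminotransferase, was 199, 230.0 and 200.3 in the LF/LCL cows and 280.3, 434 and 294 in the SF/SCL cows. In these genes and in CDO1 no cow of one group reached the other, and their adjusted p ran from 0.405 to 0.577 in limma. DESeq2 called 1 of the 27, OAT, at an adjusted p of 0.0446, beside 1.35% of all genes in each direction. In edgeR none was called, with 0.376 for OAT. Without cow 489215, 3 enzymes passed an adjusted p under 0.05 as higher in LF/LCL (ODC1, GOT2 and BCAT2) and 2, OAT and BCKDHA, as higher in SF/SCL, the latter at 0.0256 and 0.0274, where 7.92% and 10.3% of all genes passed.

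Of 14 genes of the amino acid response and of serine synthesis, 1 was at an unadjusted p under 0.05 in limma, the mitochondrial folate enzyme ALDH1L2, which was 466, 621 and 403 in the LF/LCL cows and 230.2, 279.6 and 158 in the SF/SCL cows. Of all genes, 4.48% were at that threshold as higher in LF/LCL and 4.19% as higher in SF/SCL. At an adjusted p under 0.05 DESeq2 called 1.35% of all genes in each direction. For ALDH1L2 the log2 fold change was -1.17 (SE 0.31), with an adjusted p of 0.405 in limma, 0.358 in edgeR and 0.027 in DESeq2, which called no other of the 14, and -1.35 (SE 0.25) without cow 489215, at 0.0167 in limma. Without that cow 3 of the 14 passed as higher in LF/LCL, beside 7.92% of all genes, the others being ATF4, the transcription factor of the response, and PHGDH, the first enzyme of serine synthesis. PHGDH was 5189, 5775 and 6485 in the LF/LCL cows and 2304, 8963 and 2352 in the SF/SCL cows, and its log2 fold change was -0.67 (SE 0.53) with all cows and -1.31 (SE 0.11) without cow 489215, at an adjusted p of 0.0024 in limma. In ATF4 the corresponding log2 fold changes were 0.039 (SE 0.36) and -0.37 (SE 0.087), with an adjusted p of 0.0335 without that cow.

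Of 24 genes by which mTORC1 senses amino acids, 1 was at an unadjusted p under 0.05 in limma, RRAGB, a Rag GTPase. Of all genes, 4.48% were at that threshold as higher in LF/LCL and 4.19% as higher in SF/SCL. RRAGB was 596, 684 and 727 in the LF/LCL cows and 1373, 1640.2 and 1368 in the SF/SCL cows, higher in every SF/SCL cow, cow 489215 included, with a log2 fold change of 1.125 (SE 0.19) and an adjusted p of 0.351 in limma, which is the smallest value among all genes tested. In DESeq2 the adjusted p of RRAGB was 1.5e-05, its 1 call among the 24, and in edgeR it was 0.321. DESeq2 called 1.35% of all genes in each direction. Without cow 489215 limma called LAMTOR1 as higher in LF/LCL, and RRAGB and RRAGD as higher in SF/SCL, beside 7.92% and 10.3% of all genes. Of 10 tested carriers of amino acids or peptides from other families, 0 were at an unadjusted p under 0.05 in limma or edgeR with all cows, and DESeq2 called none. Without cow 489215, 2 passed an adjusted p under 0.05 as higher in SF/SCL, beside the same 10.3%. SLC15A2, a peptide carrier, was 1452, 1193 and 1599 in the LF/LCL cows and 3781, 1093 and 4254 in the SF/SCL cows, and SLC16A10, a carrier of aromatic amino acids, was 47.1, 37.5 and 54.5 in the LF/LCL cows and 194, 9.32 and 207 in the SF/SCL cows. In both, cow 489215 was the lowest of the 6 and cows 856 and 97 the highest.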

How the data were processed

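Polyadenylated RNA of the isthmus of 6 cows was sequenced as paired ends. Per the study's methods and the labels, reads were filtered with seqyClean, aligned to a masked Bos taurus genome with TopHat2 2.0.8 and Bowtie2 2.1.0, sorted with SAMtools 0.1.18, counted per Ensembl gene with HTSeq 0.5.4p2 and divided by size factors of DESeq 1.12.1. Strand use in counting is not given in the sources used here. The deposited signal values are these normalized counts, which the authors gave for 24616 genes without a filter. In each library the values were whole multiples of 1 step, so that 100% of 147696 values gave whole reads within a tolerance of 0.001, with totals of 23899117 to 34193164 and a median of 27155932.5.

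Groups and cow numbers were taken from the sample titles. Values were tested as log2(value + 1) by linear models in limma 3.58.1 (R 4.3.3), moderated by eBayes with its trend and robust options and without covariates, over the 15387 genes with a mean above 5 and above the SD, with Benjamini-Hochberg adjustment over all genes tested and a threshold of 0.05. The mean alone kept 15922 genes. On the recovered reads, the edgeR 4.0.16 quasi-likelihood test and DESeq2 1.42.0 were run as alternatives, beside other pseudocounts (0.5 and 5), filters and scaling and the omission of each cow. The tests were tried on simulated data. Intervals cover 95%. Limits drawn from a count of 0 cover counting error only. Tables and plots used Python 3.11.15, numpy 2.4.6, pandas 2.3.3 and matplotlib 3.10.9. Gene order came from the RefSeq annotation of another assembly, where 56 of 56 symbols were found, and no sequence or position is given.

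The members and all lists were chosen with earlier results of these data known. Values in every cow were to be given for transporters at an unadjusted p under 0.05, for those called without cow 489215, for the 8 with the highest mean, for SLC1A3, SLC7A8 and SLC38A11, which the study names, and for the heavy and tested light chains, 22 rows in all. The study, which used DESeq, lists SLC1A3 among the genes differentially expressed and higher in the SF/SCL isthmus. It lists SLC38A11 for the SF/SCL ampulla, a segment not analysed here. The other transporters named with values, the pathway genes named for the fit without cow 489215, and CSAD and ADO were picked once their values were known. Of the 42 transporters tested, 1 is included in counts but not reported here by itself and not plotted.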

Additional observations from a re-analysis of the deposited data

How the results depend on the processing

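The groups could not be paired because no cow number is shared between them, and each cow gave 1 library of the isthmus. Over 14 alternatives, 8 of which kept all 6 cows, the number of transporters called moved from 0 to 1 in DESeq2 and to 0 to 8 when 1 cow was left out, with 8 only without SF/SCL cow 489215. At an unadjusted p under 0.05, 4 were higher in LF/LCL, 7 without a filter and 0 to 8 when 1 cow was left out (0 without cow 527, 1 without 617 or 79, 8 without 489215), and 2 were higher in SF/SCL, 0 to 9 when 1 cow was left out (0 without 527, 79 or 856, 1 without 97, 9 without 489215). The shares of all genes at this unadjusted p were not counted in the alternatives. Without cow 489215 more of all genes passed as well, with 7.92% and 10.3% at an adjusted p under 0.05 in limma. The 5 without overlap and higher in LF/LCL became 6 to 10 with a cow left out (9 without 856, 10 without 489215), and the 5 higher in SF/SCL became 5 to 15, the latter without 489215. Groups with fewer cows separate more easily. The share of all genes without overlap was not counted in these fits, so the rise is not read as a trait of the transporters. The median log2 fold change of -0.083 ran from -0.18 to 0.15 with a cow left out. Of 21 named transporters with a test, 12 never changed sign. SLC38A2 turned from -0.050 to 0.016 in DESeq2 and in edgeR with RLE factors. SLC7A11 turned from -0.16 to 0.28 in DESeq2, to 0.29 and 0.27 in edgeR with RLE and TMM factors, and to 0.0043 with a pseudocount of 5. Leaving out a cow also turned the sign of SLC1A1, SLC1A4, SLC38A10, SLC38A2, SLC3A1, SLC6A8, SLC7A10, SLC7A11 and SLC7A6, with ranges of -0.077 to 0.23 for SLC1A1, of -0.14 to 0.075 for SLC1A4, of -0.73 to 0.094 for SLC38A10, of -0.35 to 0.14 for SLC38A2, of -0.048 to 0.023 for SLC3A1, of -0.15 to 0.15 for SLC6A8, of -0.57 to 0.61 for SLC7A10, of -0.70 to 0.66 for SLC7A11 and of -0.21 to 0.54 for SLC7A6. The cause of these changes was not tested. Low counts limit SLC6A2, SLC7A10, SLC7A11 and the genes outside the test, where a few reads move a value.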
